A study of Mus musculus with 32 samples.

Results

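The genes described here encode the membrane proteins, acid hydrolases and proton pump of the lysosome, together with the transcription factors that switch such genes on. A list of 32 symbols was looked up in the gene names of the Lin- and CD11b+ expression tables, with cathepsins left out, and IGF2BP3 eCLIP peaks were assigned to a gene by the Ensembl identifier that each peak carries. All 32 genes had a value in both tables, among 26560 genes in the Lin- table and 25887 in the CD11b+ table.

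The lysosome degrades macromolecules delivered by endocytosis, phagocytosis and autophagy in an acid lumen that the V-ATPase proton pump maintains. Many of its genes share a short promoter element read by TFEB, TFE3 and MITF, basic helix-loop-helix factors that nutrient signalling through mTORC1 holds in the cytoplasm. Granulocytes, monocytes and macrophages carry large lysosomal and lysosome-related compartments.

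IGF2BP3 is an oncofetal RNA-binding protein, and the study asked which transcripts it contacts and how they change when it is lost in leukemia driven by the MLL-Af4 fusion. Lin- cells were lineage-depleted mouse bone marrow cells, transduced with the MSCV-MLL-flag-Af4 retrovirus and selected with G418, so they form a mixed drug-resistant culture and not a clone. CD11b+ cells were taken with CD11b antibody beads from splenic tumors of leukemic mice that carried MLL-Af4. That source is given in a protocol shared by all samples, while the names of the eCLIP libraries, Lin- and CD11b+ alike, start with an unexplained bm, so the tissue behind the CD11b+ eCLIP values was not checked. RNA-seq covered 3 wild type and 3 IGF2BP3 KO (germline Igf2bp3 deletion) libraries per cell type. Crosslinking and sequencing of RNA held by a protein (eCLIP) covered 6 Lin- and 4 CD11b+ libraries with MBL IGF2BP3 antibody, each with a size-matched input (smInput). The paper's legends give the eCLIP cells as wild type with MLL-Af4, while the expression levels below pool both genotypes. Fusion virus was present in every group, including both genotypes. According to the paper, leukemic mice were made by giving transduced, fluorouracil-enriched donor marrow to lethally irradiated recipients. No treatment was compared here, and animal age was not used. Of the eCLIP libraries, Lin- 1, 2 and 3 and CD11b+ 1 and 2 were labelled biological replicates, and the remaining 3 Lin- and 2 CD11b+ libraries technical ones.

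Each expression table gives 1 level per gene, the authors' mean of DESeq2-normalized counts over its libraries of both genotypes, with no spread. Levels below are therefore descriptions. The authors' own comparisons of KO with wild type were not used, so no genotype effect is given. For Igf2bp3 itself the authors' mean was 2041 normalized counts in the Lin- table and 1355 in the CD11b+ table, pooled over both genotypes, so the labels cannot be checked from it. The 2 tables were normalized separately, and in such bulk samples fewer cells of a type and less RNA per cell cannot be told apart. Read depth of the eCLIP libraries was not analysed, and only their numbers of peaks are given here. Lin- libraries 1 to 3 had 7361, 10042 and 8685 smInput-filtered peaks, and the technical libraries 4 to 6 had 4040, 6494 and 4510. CD11b+ libraries 1 to 4 had 8521, 10054, 7586 and 7085.

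The labelled cell types were checked against marker genes. Of 7 myeloid markers, 6 had a value used here in the Lin- table, where their means summed to 149748 normalized counts with Mpo highest per kb, and all 7 had one in the CD11b+ table, where they summed to 232643 with Lyz2 highest. Itgam, which encodes CD11b itself, stood at 16.98 normalized counts in the CD11b+ table (percentile 30.4 of level per kb) and had no value used here in the Lin- table. The same gene held 11 separate bound regions in CD11b+ cells, with peaks in all 4 libraries, although its listed level was that low. The 3 stem and progenitor markers Kit, Cd34 and Flt3 summed to 25422 normalized counts in the Lin- table and 2354 in the CD11b+ table, with Cd34 highest per kb in both. Neutrophil markers (3 of 3 with a value) summed to 5642.5 in the Lin- table, with S100a9 highest per kb, and 75841 in the CD11b+ table, with S100a8 highest. Erythroid markers (3 of 3) summed to 97.4 and 2365, with Hbb-bs and Hba-a1 highest per kb, and B cell markers (3 of 3) to 8.03 and 314, with Cd79a highest per kb. T cell markers summed to 2.92 in the Lin- table (2 of 3 with a value) and 13.6 in the CD11b+ table (3 of 3), with Cd3g highest per kb. None of the markers with a value was at 0. The part of other cells in the levels of the lysosome genes was not tested.

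The lysosome genes were among the more abundant transcripts of both cell types. Their median level per kb of exon was 1276 normalized counts in the Lin- table against 35.2 over all its genes, and 817 in the CD11b+ table against 30.0. That placed the median lysosome gene at percentile 93.3 of the Lin- table and 90.9 of the CD11b+ table, and 18 and 16 of the 32 stood above percentile 90. A mean of at least 10 normalized counts was reached by 32 genes in the Lin- table and 31 in the CD11b+ table, against 62.8% and 62.5% of all genes, and one of at least 1000 by 29 and 24, against 23.8% and 17.3%. Together the 32 genes took 0.735% of all normalized counts in the Lin- table and 0.869% in the CD11b+ table. The order of the genes was much alike in both, with a Spearman correlation of 0.963 between their levels per kb (n = 32 genes, which share gene length and the kind of library).

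**Figure D1:**
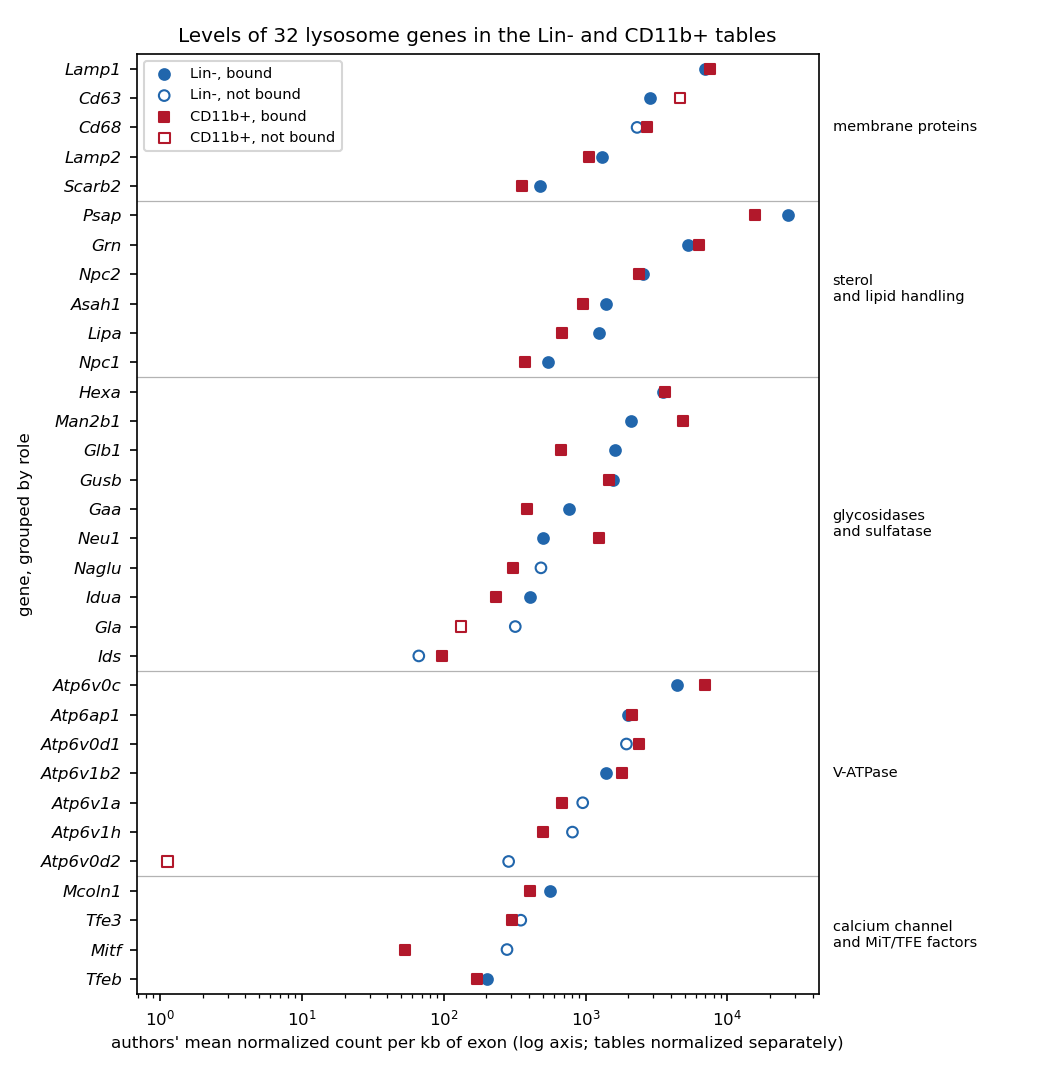
Authors' mean normalized count per kb of exon (log axis) for each of the 32 lysosome genes, grouped by role, in the Lin- table (circles) and the CD11b+ table (squares), which were normalized separately; filled symbols mark genes with at least 1 smInput-filtered IGF2BP3 eCLIP peak in that cell type. Psap is highest in both tables, and Atp6v0d2 stands apart at 1.13 in the CD11b+ table against 287 in the Lin- table.

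IGF2BP3 peaks were found in most of these genes. A gene was called bound where 1 or more peaks that passed the smInput filter named it, whichever library of that cell type they came from. In Lin- cells 22 of 32 were bound (68.8%, Wilson 95% interval 51.4 to 82.0), against 26.5% of all genes in the table. Bound genes were more frequent among abundant transcripts, so the closer background is the genes with at least 1000 normalized counts, of which 76.5% were bound, and 21 of the 29 lysosome genes at that level were (72.4%, 54.3 to 85.3). The Lin- count is thus near its background. In CD11b+ cells 29 of 32 were bound (90.6%, 75.8 to 96.8), against 25.6% of all genes. At 1000 or more normalized counts the CD11b+ count was 23 of 24 (95.8%, 79.8 to 99.3), against 68.4%, and the gene left over was Cd63. In 7 of the 29 genes (Lipa, Glb1, Ids, Neu1, Tfe3, Atp6v1a and Atp6v1h) all CD11b+ peaks came from technical libraries, which are not independent samples. Biological libraries alone gave 22 of 32 in CD11b+ cells, against 21.7% of all genes, and 17 of 24 at 1000 or more normalized counts (70.8%, 50.8 to 85.1), against 62.1%, which lies within the interval. In Lin- cells they gave 22 of 32, against 24.6%, and 21 of 29 at 1000 or more normalized counts, against 71.9%. These intervals cover counting error only. At a deposited peak p below 0.001 the CD11b+ count was 15 of 32, against 14.2% of all genes, and 12 of 24 at 1000 or more normalized counts (50%), against 47.6%. Genes with 2 or more separate CD11b+ regions numbered 17 of 32, against 13.3%, and 13 of 24 (54.2%), against 48.5%. Both are near the background of abundant genes.

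The stricter call of peaks in at least 2 biological libraries was met in Lin- cells by 16 of 32 genes, against 13.7% of all genes, and by 15 of 29 at 1000 or more normalized counts (51.7%), against 46.9%. That count was 9 of 32 without Lin- library 2 (against 8.87% of all genes) and 8 of 32 without library 3 (against 8.75%), where both remaining libraries had to hold a peak, so the count of any genes could not rise. It was 7 of 32 at a deposited p below 0.001 (against 6.51%), and at 1000 or more normalized counts the 3 counts were 8, 7 and 7 of 29 against 32%, 30.7% and 22.8%. In CD11b+ cells the stricter call was met by 13 of 32, against 10.2% of all genes, and by 10 of 24 at 1000 or more normalized counts (41.7%), against 37.9%. On this call both cell types were near the background of abundant genes. Peaks were found in both cell types for 21 of the 32 genes, which is 95.5% of the lysosome genes bound in Lin- cells and 72.4% of those bound in CD11b+ cells. Over the 23620 genes present in both tables, the like shares were 65.7% and 69.7%. At 1000 or more normalized counts in both tables they were 94.7% and 78.3% for the lysosome genes, against 79.7% and 89.8%. Cd63 was bound in Lin- cells only (1 of 32, against 10.1% of all genes), 8 genes in CD11b+ cells only (25%, against 8.42%), and Gla and Atp6v0d2 in neither (2 of 32, against 62.1%). Among the 24 lysosome genes with at least 1000 normalized counts in both tables, 18 were bound in both cell types (75%, against 66.4% of such genes), 1 in Lin- cells only (4.17%, against 16.9%), 5 in CD11b+ cells only (20.8%, against 7.53%) and 0 in neither (against 9.12%). In biological libraries alone 18 of the 32 were bound in both cell types (56.3%, against 16.2% of all genes), 4 in Lin- cells only (12.5%, against 11.2% of all genes), 4 in CD11b+ cells only (12.5%, against 7.32%) and 6 in neither (18.8%, against 65.3%). Of the 24 abundant genes 15 were then bound in both (62.5%, against 58.5% of such genes), 4 in Lin- cells only (16.7%, against 21%), 2 in CD11b+ cells only (8.33%, against 8.54%) and 3 in neither (12.5%, against 11.9%), all near the background.

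**Figure D2:**
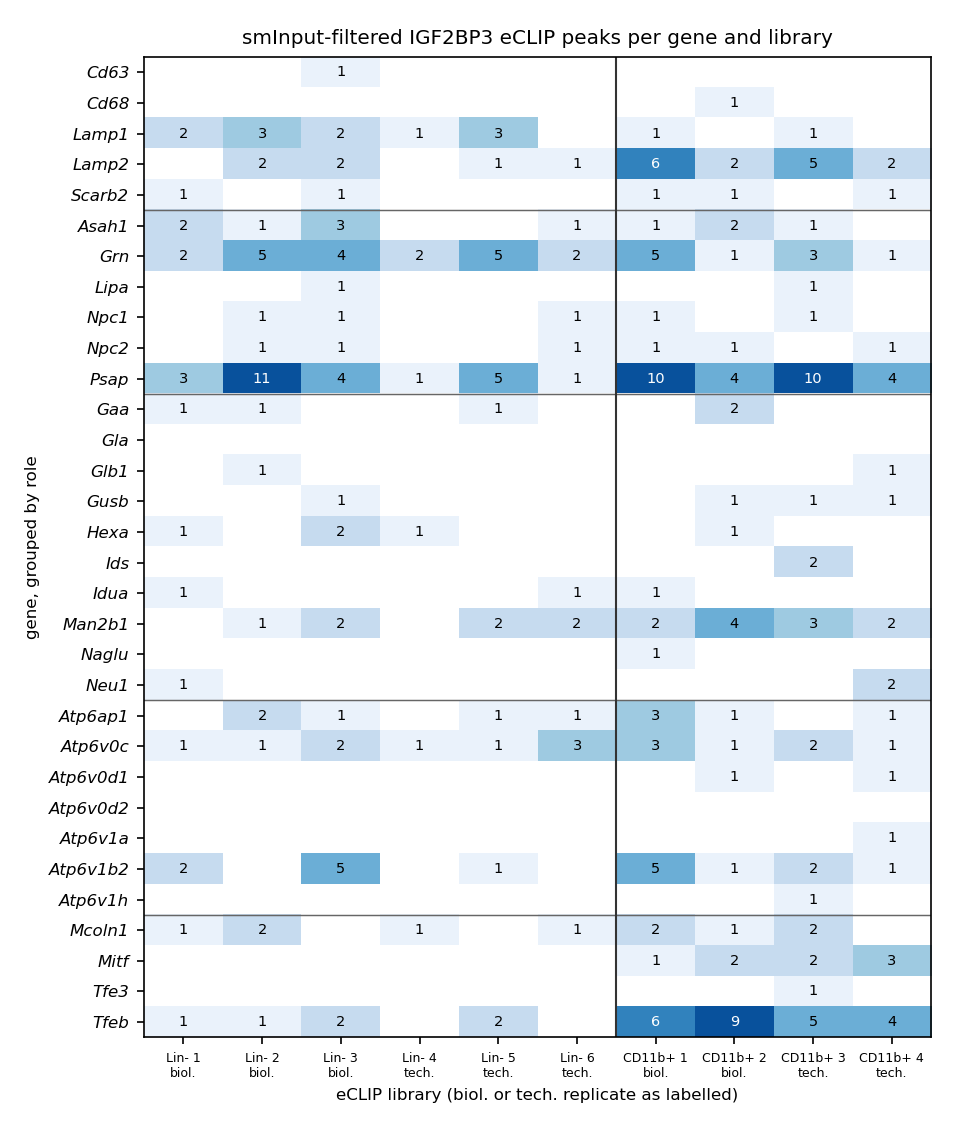
Number of smInput-filtered IGF2BP3 eCLIP peaks in each lysosome gene (vertical, grouped by role) and each eCLIP library (horizontal, Lin- 1 to 6 and CD11b+ 1 to 4, labelled biological or technical); empty cells are 0. Psap, Grn and Atp6v0c have peaks in every library, and Tfeb and Mitf have more peaks in the CD11b+ libraries than in the Lin- ones.

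Among the membrane proteins, Lamp1 and Lamp2 encode the abundant glycoproteins that line the inner face of the lysosomal membrane. Lamp1 had 15593 normalized counts in the Lin- table (percentile 99.2 of level per kb) and 16681 in the CD11b+ table (98.7). Its filtered peaks in the 6 Lin- libraries numbered 0 at the lowest, 2 at the median and 3 at the highest, and those in CD11b+ libraries 1 to 4 numbered 1, 0, 1 and 0. The Lin- peaks of Lamp1 joined into 3 regions, each found in at least 2 biological libraries, of which 1 lay in the 5' UTR at chr8:13159333-13159436 (mm10, plus strand). Lamp2 had 6563 normalized counts in the Lin- table and 5333 in the CD11b+ table, and its peaks numbered 6, 2, 5 and 2 in CD11b+ libraries 1 to 4 against 0, 1 and 2 (lowest, median, highest) in the Lin- libraries. In CD11b+ cells 4 of its 10 regions lay in the 3' UTR and none in the 5' UTR, while in Lin- cells a 5' UTR region at chrX:38456307-38456412 (minus strand) recurred in 4 libraries (deposited p 3.30e-46). Both genes thus carried a 5' UTR region in Lin- cells that no CD11b+ library showed. Of all lysosome gene regions, 3 of 65 in Lin- cells (4.62%) and 1 of 80 in CD11b+ cells (1.25%) lay in a 5' UTR. Over all genes the shares were 4.98% and 1.78%, so the lower CD11b+ share is not particular to the lysosome genes.

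Cd63, a tetraspanin of late endosomes, was abundant in both tables (4153 and 6718 normalized counts) yet had a single Lin- peak, in library 3, and none in CD11b+ cells. The macrophage glycoprotein gene Cd68 had 2902 and 3395 normalized counts and a single peak, in CD11b+ library 2 with a deposited p of 0.0453. Scarb2, which encodes the receptor that carries glucocerebrosidase to the lysosome, had 2 regions in each cell type, and 1 of the CD11b+ regions was found in both biological libraries. A high level was thus no assurance of a peak within this group.

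The class of sterol and lipid handling genes, in which Grn was counted, held the largest share of the Lin- regions, 23 of 65. Psap gave 9 of these 23 and Grn 5. In CD11b+ cells the class held 17 of 80, of which Psap gave 6 and Grn 5, and the glycosidases and sulfatase held 18. All 6 genes of the sterol and lipid class were bound in both cell types, against 66.4% of genes with at least 1000 normalized counts in both tables. In biological CD11b+ libraries alone 5 of the 6 were bound, against 62.1% of genes at that level. Psap encodes prosaposin, the precursor of the activators of sphingolipid breakdown. It was the most abundant of the 32 genes, with 73346 normalized counts in the Lin- table (percentile 99.9) and 43099 in the CD11b+ table (99.5), which were 37.2% and 24.6% of the sum over the lysosome genes. Filtered Psap peaks numbered 3, 11 and 4 in Lin- libraries 1 to 3, 1, 5 and 1 in libraries 4 to 6, and 10, 4, 10 and 4 in the CD11b+ libraries. The strongest CD11b+ region, in the 3' UTR at chr10:60302214-60302311 (plus strand), was present in all 4 libraries with a deposited p of 2.01e-133. An overlapping 3' UTR region of Lin- cells was seen in 4 of 6 libraries (deposited p 5.18e-47), so the end of Psap was contacted in both cell types.

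Grn encodes progranulin, a secreted and lysosomal precursor of granulins. Its level was 12280 normalized counts in the Lin- table and 14663 in the CD11b+ table. Peaks of Grn were present in all 10 eCLIP libraries, 2, 5 and 4 in Lin- libraries 1 to 3, 2, 5 and 2 in libraries 4 to 6, and 5, 1, 3 and 1 in the CD11b+ libraries. A region at the end of intron 5 recurred in all 6 Lin- libraries, a CD11b+ region spanning the same intron had peaks in all 4 libraries, and another at the end of intron 12 recurred in 5 of 6 Lin- libraries. Asah1, the acid ceramidase gene, had 3 Lin- regions, all in introns and each in 2 biological libraries, and 2 CD11b+ regions. Npc1 and Npc2, whose products export cholesterol from the lysosome, had 2 and 3 Lin- regions and 1 and 2 CD11b+ regions. Lipa, the acid lipase gene, had 1 region in each cell type, and each rested on a single library.

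The 10 genes for glycosidases and a sulfatase were bound more thinly, with 14 Lin- and 18 CD11b+ regions. Man2b1, which encodes the lysosomal alpha-mannosidase, was the exception in CD11b+ cells, where it had 18503 normalized counts (percentile 98) and 2, 4, 3 and 2 peaks in libraries 1 to 4. In the Lin- table it had 7930 normalized counts (96.5) and 0, 1.5 and 2 peaks (lowest, median, highest). Its 6 CD11b+ and 4 Lin- regions were all intronic, and the one in intron 16 at chr8:85094820-85094883 (plus strand) was found in all 4 CD11b+ libraries and, over most of its length, in 4 Lin- libraries. Neu1, the sialidase gene, stood at percentile 81.7 in the Lin- table and 94.0 in the CD11b+ table, and had 1 and 2 regions.

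Hexa, which encodes a subunit of beta-hexosaminidase, stood at percentiles 98.3 and 97.5 with 3 and 1 regions. Gusb (beta-glucuronidase), Glb1 (beta-galactosidase) and Gaa (the glycogen-degrading alpha-glucosidase) had 1, 1 and 2 Lin- regions and 2, 1 and 2 CD11b+ regions, and only the intron 8 region of Gaa in Lin- cells was shared by 2 biological libraries among these. The enzymes of glycosaminoglycan breakdown Idua, Ids and Naglu had 2, 0 and 0 Lin- regions and 1, 2 and 1 CD11b+ regions, each from 1 library. Ids was the least abundant of the 32 genes in the Lin- table, at 332 normalized counts (percentile 55.4). Gla, the alpha-galactosidase A gene, had 1014 and 420 normalized counts and no peak in any library.

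Of the 7 V-ATPase genes among the 32, 3 were bound in Lin- cells and 6 in CD11b+ cells, of which 3 and 4 in biological libraries. At 1000 or more normalized counts the counts were 3 of 6 and 6 of 6, against 76.5% and 68.4% of all genes at that level. Atp6v0c encodes the proteolipid of the membrane-embedded ring through which protons pass. It had 5539 normalized counts in the Lin- table (percentile 98.7) and 8802 in the CD11b+ table (98.6). Its peaks numbered 1, 1 and 2 in Lin- libraries 1 to 3, 1, 1 and 3 in libraries 4 to 6, and 3, 1, 2 and 1 in CD11b+ libraries 1 to 4. A 5' UTR region at chr17:24169275-24169362 (minus strand) was present in all 6 Lin- libraries with a deposited p of 3.03e-298, the smallest of any lysosome gene, and its CD11b+ counterpart at chr17:24169289-24169360 in all 4 CD11b+ libraries with 4.95e-18. No other 5' UTR region of the 32 genes was seen in both cell types.

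Atp6v1b2, a subunit of the ATP-hydrolysing head, had 3956 and 5076 normalized counts. It had peaks in 3 of 6 Lin- libraries, 2 in library 1, 5 in library 3 and 1 in library 5, and 5, 1, 2 and 1 in the CD11b+ libraries, which joined into 6 and 5 regions. Atp6ap1, an accessory protein of pump assembly, had 3 regions in each cell type, with 2 of the CD11b+ ones in the 3' UTR. Atp6v0d1, Atp6v1a and Atp6v1h had no Lin- peak at 3163, 4057 and 1759 normalized counts, and 1 region each in CD11b+ cells, none of them in 2 biological libraries. Atp6v0d2 encodes the d subunit isoform best known from osteoclasts and macrophages. It had 729 normalized counts in the Lin- table (percentile 72.7) and 2.87 in the CD11b+ table (19.5), the lowest of the 32 genes there, and no peak in any library.

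The transcription factors TFEB, TFE3 and MITF and the channel gene Mcoln1 formed the least abundant class, with median percentiles of 74.1 in the Lin- table and 75.3 in the CD11b+ table. Tfeb had 806 normalized counts in the Lin- table (percentile 67.4) and 693 in the CD11b+ table (71.0). Against that level Tfeb had the most CD11b+ regions of any of the 32 genes, 11, all in intron 1. Its peaks numbered 6, 9, 5 and 4 in CD11b+ libraries 1 to 4, and 1, 1 and 2 in Lin- libraries 1 to 3 with 0, 2 and 0 in libraries 4 to 6. The lowest CD11b+ library thus exceeded the highest Lin- library. Of the 11 regions 4 were found in both biological CD11b+ libraries, and the one at chr17:47770575-47770635 (plus strand) in all 4 libraries and, nearly in the same place, in 3 Lin- libraries.

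Mitf showed peaks in CD11b+ cells only, 1, 2, 2 and 3 in libraries 1 to 4, in 3 regions of intron 1, although its level was lower in that table (283 normalized counts, percentile 55.4) than in the Lin- table (1487, percentile 72.3). Mitf was also the gene with the most input signal, with a peak in 3 of the 4 CD11b+ inputs and 1 of the 6 Lin- inputs. Tfe3 had no Lin- peak and 1 CD11b+ peak, in library 3. Mcoln1, which encodes the lysosomal calcium channel whose opening activates TFEB, had 1, 2 and 0 peaks in Lin- libraries 1 to 3, 1, 0 and 1 in libraries 4 to 6, and 2, 1, 2 and 0 in the CD11b+ libraries. The number of regions per gene had a Spearman correlation with the mean normalized count of 0.586 for Lin- and 0.331 for CD11b+ regions. With the length of the gene the correlation was -0.08 and 0.01 (n = 32 genes, which share libraries). The difference between level and length was not tested.

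The input filter removed no peak from the lysosome genes. It dropped 16.9% of all Lin- peaks and 13.6% of all CD11b+ peaks, but 0 of 131 and 0 of 156 in the 32 genes. The inputs themselves held 4 peaks in these genes in Lin- cells (Lamp2, Scarb2, Asah1 and Mitf, 1 each) and 6 in CD11b+ cells (Mitf 3, Lamp2, Scarb2 and Tfeb 1 each). Before the filter, peaks in the 32 genes per 1000 peaks of the library were 2.09, 2.84 and 3.53 in Lin- eCLIP libraries 1 to 3 and 1.11, 0 and 0.751 in their inputs. Every eCLIP value lay above every input value, with means of 2.82 ± 0.723 and 0.619 ± 0.565 (SD, n = 3 each). The difference of 2.20 had p = 0.1 in a two-sided unpaired exact permutation test, the smallest p that this test allows. With eCLIP and input of the same number paired, the exact sign-flip p was 0.25, also the smallest possible. In CD11b+ cells the values were 5.23 and 3.06 for eCLIP and 0 and 1.59 for input, means of 4.15 ± 1.54 and 0.796 ± 1.13 (SD, n = 2 each). The difference of 3.35 had p = 0.333 in the unpaired exact permutation test and p = 0.5 in the paired exact sign-flip test, each the smallest possible. It was 1.47 without CD11b+ library 1 and 5.23 without library 2. Peaks of eCLIP and input were called under different settings. No like values for other abundant genes are given, so these differences are not shown to be particular to the lysosome genes.

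The number of bound lysosome genes per library met at 17 in the 2 cell types. It was 13, 14 and 17 in Lin- libraries 1 to 3 and 17 and 18 in CD11b+ libraries 1 and 2, or 14.7 ± 2.08 (SD, n = 3) and 17.5 ± 0.707 (SD, n = 2), a difference of 2.83 (p = 0.3, two-sided exact permutation test, smallest possible 0.1). Per 1000 filtered peaks of the library, the lysosome genes had 2.58, 3.29 and 4.03 peaks in Lin- libraries 1 to 3 and 5.87 and 3.58 in CD11b+ libraries 1 and 2. These values also overlap, at 3.30 ± 0.724 (SD, n = 3) and 4.72 ± 1.62 (SD, n = 2), with a difference of 1.43 (p = 0.3, exact permutation test). The latter difference rests on CD11b+ library 1, without which it was 0.282, and was 2.57 without CD11b+ library 2. Neither difference passed the test, and libraries of the same cell type differed about as much. With the technical libraries added the p values were 0.0381 and 0.0190 in the exact permutation test, but technical libraries are not independent samples.

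Overlapping peaks of a gene were joined across libraries, which gave 65 Lin- and 80 CD11b+ regions with median widths of 54 and 55 bases. Most regions lay in introns by their midpoint, 48 of 65 in Lin- cells (73.8%, Wilson interval 62.0 to 83.0) and 64 of 80 in CD11b+ cells (80%, 70.0 to 87.3). Over all genes the intronic share was 77.5% of 20608 regions and 83.7% of 17735. Coding exons held 9 Lin- regions, 1 in each of 9 genes (13.8%, 7.46 to 24.3, against 8.06% over all genes), and 1 CD11b+ region (1.25%, 0.221 to 6.75, against 2.01%), both near the share of all genes. The 3' UTR held 5 of 65 Lin- regions (7.69%) against 3.33% over all genes, and 14 of 80 CD11b+ regions (17.5%, 10.7 to 27.3) against 7.73% over all genes and 8.77% over genes with at least 1000 normalized counts. The CD11b+ count leaned on library 1, without which it was 9 of 65 (13.8%, 7.46 to 24.3). The like shares were then 6.91% over all genes and 7.92% over genes with at least 1000 normalized counts. The CD11b+ count was 14 of 72 without library 2 (19.4%, against 8.72% over all genes). In biological CD11b+ libraries alone it was 12 of 62 (19.4%, against 7.96%). The Lin- count was 3 of 57 without library 2 (5.26%, against 2.84%) and 6 of 51 without library 3 (11.8%, against 3.46%). In biological Lin- libraries alone it was 7 of 58 (12.1%, against 3.37%). Peaks were joined anew from the libraries kept, so a joined region could split or its midpoint shift. Counts above the 5 of all Lin- libraries come from that step and are not further sites. Of the 14 CD11b+ regions over all libraries 3 were found in both biological libraries (21.4%, against 26.2% of all 3' UTR regions). The 14 were spread over Lamp2 (4), Psap, Grn, Ids and Atp6ap1 (2 each), and Npc2 and Atp6v1b2 (1 each). Biological replicates shared 23 of the 65 Lin- regions (35.4%, against 23.2% over all genes) and 18 of the 80 CD11b+ regions (22.5%, against 19.2%). A region of the other cell type overlapped 22 of the 65 Lin- regions (33.8%) and 21 of the 80 CD11b+ regions (26.3%), with 25.1% and 29.7% over all genes.

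The intronic regions of the 2 cell types differed in where they lay. In Lin- cells 36 of 48 had their midpoint within 100 bases of the 3' splice site at the end of the intron (75%, Wilson interval 61.2 to 85.1), at a median distance of 22 bases among these, where the branch point and polypyrimidine tract lie. In CD11b+ cells 17 of 64 did (26.6%, 17.3 to 38.5), at a median distance of 28 bases among these. Over all 48 and 64 intronic regions the median distance was 23.5 bases in Lin- cells and 1190 in CD11b+ cells. Over all genes the shares within 100 bases were 53.2% and 14.0%. Of the 48 Lin- regions 33 also touched an exon, at either end of the intron. Counted as exonic on any overlap, the intronic share fell to 23.1% in Lin- cells (14.5 to 34.6), against 36.4% over all genes and 34.7% over genes with at least 1000 normalized counts, and to 68.8% in CD11b+ cells (57.9 to 77.8), against 74.3% and 74.0%. Intron 1 held 5 of 48 Lin- intronic regions (10.4%, against 18% over all genes) and 28 of 64 CD11b+ ones (43.8%, against 32.7%). Of the latter 11 lay in Tfeb, and the other genes had 17 of their 53 intronic regions there (32.1%), near the share of all genes.

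This measure was chosen after its values were seen. Taken per library, the share of intronic lysosome peaks within 100 bases of a 3' splice site was 94.4%, 66.7% and 81.5% in Lin- libraries 1 to 3 and 25.8% and 18.8% in CD11b+ libraries 1 and 2. The technical libraries gave 83.3%, 58.3% and 66.7% in Lin- cells and 23.3% and 13.6% in CD11b+ cells. No CD11b+ library reached the lowest Lin- library. The means were 80.9 ± 13.9% (SD, n = 3) and 22.3 ± 4.99% (SD, n = 2), with p = 0.1 in a two-sided exact permutation test, the smallest possible. Peaks of all genes showed the same direction, with 70.2%, 32% and 54.9% in Lin- libraries 1 to 3 and 15.2% and 12.2% in CD11b+ libraries 1 and 2. The lysosome genes stood above all genes in 10 of 10 libraries, of which only 3 Lin- and 2 CD11b+ ones are biological replicates. Among joined regions of genes with at least 1000 normalized counts the share was 56.9% for Lin- and 17.0% for CD11b+.

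**Figure D3:**
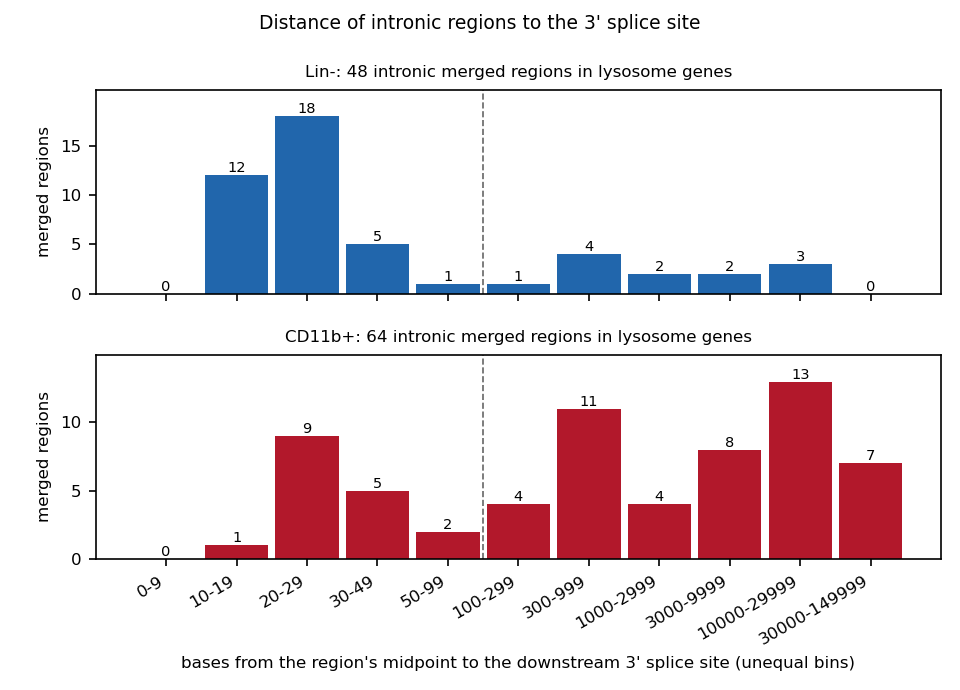
Number of intronic joined eCLIP regions in the lysosome genes by the distance, in bases, from the region's midpoint to the downstream 3' splice site, in unequal bins; the dashed line stands at 100 bases. In Lin- cells (top) 36 of 48 regions lie left of it, and in CD11b+ cells (bottom) 17 of 64.

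The bases under recurrent splice-site regions show the end of the intron and the start of the exon. The regions below were taken as those present in the most biological libraries, longest first, outside UTRs, and are printed on the transcript strand (plus, mm10) with coding exon bases in capitals. The Lin- regions are Grn intron 5, chr11:102434073-102434154 (82 bases, in 6 of 6 libraries, deposited p 1.24e-28), Lamp1 intron 6, chr8:13173568-13173646 (79 bases, in 3 libraries), and Grn intron 12, chr11:102436279-102436346 (68 bases, in 5 libraries). The CD11b+ region is Grn intron 5, chr11:102434031-102434158 (128 bases, in 4 of 4 libraries, deposited p 4.55e-13), which holds the whole intron between capitals at both ends. The last 13, 20 and 12 bases of the Lin- regions are exonic.
Grn intron 5, Lin-: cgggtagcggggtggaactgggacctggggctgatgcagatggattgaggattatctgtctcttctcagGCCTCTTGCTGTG
Lamp1 intron 6, Lin-: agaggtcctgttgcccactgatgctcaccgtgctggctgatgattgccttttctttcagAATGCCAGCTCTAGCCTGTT
Grn intron 12, Lin-: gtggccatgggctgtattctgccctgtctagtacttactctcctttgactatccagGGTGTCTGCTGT
Grn intron 5, CD11b+: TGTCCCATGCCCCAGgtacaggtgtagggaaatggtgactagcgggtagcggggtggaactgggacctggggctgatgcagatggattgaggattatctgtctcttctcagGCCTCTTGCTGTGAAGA

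The other regions chosen by this rule lie away from exons, and 3 of the 4 hold a long GT repeat, which is in capitals below where GTGTGT or TGTGTG matched. They are Psap intron 1 in Lin- cells, chr10:60288236-60288309 (74 bases, plus strand, in 3 libraries), and in CD11b+ cells Atp6v1b2 intron 2, chr8:69100712-69100819 (108 bases, plus strand, in 4 libraries), Mitf intron 1, chr6:97808927-97809003 (77 bases, plus strand, in 4 libraries), and Lamp2 intron 1, chrX:38455675-38455780 (106 bases, minus strand, in 3 libraries). The longest unbroken repeats measure 32 bases in Psap, 55 in Atp6v1b2 and 34 in Mitf, while the Lamp2 region has none and its deposited p of 7.96e-44 is the smallest of these 4.
Psap intron 1, Lin-: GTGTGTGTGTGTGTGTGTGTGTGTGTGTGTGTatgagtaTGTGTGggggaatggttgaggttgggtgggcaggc
Atp6v1b2 intron 2, CD11b+: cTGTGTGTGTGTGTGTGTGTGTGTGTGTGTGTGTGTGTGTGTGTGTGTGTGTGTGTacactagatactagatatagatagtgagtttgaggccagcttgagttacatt
Mitf intron 1, CD11b+: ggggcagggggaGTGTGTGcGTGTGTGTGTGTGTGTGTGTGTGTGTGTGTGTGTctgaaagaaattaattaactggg
Lamp2 intron 1, CD11b+: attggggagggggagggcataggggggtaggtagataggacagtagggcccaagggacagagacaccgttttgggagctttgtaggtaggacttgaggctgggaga

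None of these 8 sequences holds ACACAC or CACACA, the CA-rich letters known for IGF2BP3. Over all regions of the lysosome genes those 6-mers, searched on the transcript strand, were found in 2 of 65 in Lin- cells (3.08%, Wilson interval 0.848 to 10.5) against 8.35% over all genes, and in 7 of 80 in CD11b+ cells (8.75%, 4.30 to 17.0) against 17.0%. The Lin- matches lie in Lamp2 and Lipa, and both come from library 3, without which the share is 0. The CD11b+ matches lie in Tfeb (3), Hexa, Lamp2, Mcoln1 and Scarb2, and all 9 matches are intronic. The share over all genes lies inside the interval in Lin- cells and just above it in CD11b+ cells. There the share over genes with at least 1000 normalized counts, 15.7%, lies inside. With 50 bases added on each side the shares of the lysosome regions were 9.23% in Lin- and 17.5% in CD11b+ cells. No share over all genes is given for such widened regions. For the shorter CACA the shares were 16.9% in Lin- cells (9.72 to 27.8) against 21.1% over all genes, and 11.3% in CD11b+ cells (6.03 to 20.0) against 24% over all genes and 23.3% over genes with at least 1000 normalized counts, both above the interval. The complementary letters GTGTGT or TGTGTG, searched on the transcript strand after the sequences above had been seen, were found in 7 of 65 Lin- regions (10.8%, 5.32 to 20.6) against 8.09% over all genes, and in 17 of 80 CD11b+ regions (21.3%, 13.7 to 31.4) against 24%. Both shares are near those of all genes. A match describes letters under a peak and is not a binding site.

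The promoters were searched for the letters that TFEB, TFE3 and MITF are known to read. RefSeq promoter sequences (250 bases before to 50 after the start, GRCm38.p6) were found for 27 of the 32 genes, all but Npc1, Asah1, Atp6v0d2, Atp6v1b2 and Atp6v1h. CACGTG, which reads the same on both strands, was present in 8 of the 27 (29.6%, Wilson interval 15.9 to 48.5), against 2187 of 27025 genes (8.09%). With a T before it on either strand (TCACGTG, which contains CACGTG) it was present in the same 8 against 4.29% of genes. They are Lamp1, Gaa, Gla, Glb1, Naglu, Mcoln1, Atp6v0d1 and Atp6v1a. The comparison is with genes of any level, and no share over genes with at least 1000 normalized counts is given. Many lysosome genes are already known to share this element, so the higher share is no new trait of the list. Whether any of these factors sits there was not tested.

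A further 66 lysosome genes outside the 32 were looked up for comparison, and all had values in both tables. Of these 39 carried a Lin- peak and 42 a CD11b+ peak, 23 and 19 of them in at least 2 biological libraries, with median percentiles of 84.4 and 87.2. At 1000 or more normalized counts 38 of 46 were bound in Lin- cells (82.6%, against 76.5% of all genes at that level) and 32 of 45 in CD11b+ cells (71.1%, against 68.4%), and 50% and 33.3% were bound in at least 2 biological libraries, against 46.9% and 37.9%. These shares are near the background. The remaining V-ATPase genes were all bound in Lin- cells, 11 of 11, and 6 of 11 in CD11b+ cells, but only 3 of 11 in at least 2 biological libraries of either cell type. All 11 had 1000 or more normalized counts in the Lin- table and 10 in the CD11b+ table, where 6 of the 10 were bound. Tcirg1, the a3 subunit gene, led with 8 and 5 regions at percentiles 96.5 and 95.8. Other hydrolases were bound in 9 and 12 of 19, and at 1000 or more normalized counts in 9 of 12 in each cell type. Other membrane and transport proteins were bound in 6 of 12 in Lin- cells and 10 of 12 in CD11b+ cells. Laptm5, the most abundant of them per kb in both tables, had 31231 and 49387 normalized counts and 7 and 6 regions, and Tpcn1 equalled it in Lin- cells with 7. At 1000 or more normalized counts 6 of 7 and 7 of 8 of that list were bound. Mannose 6-phosphate sorting genes were bound in 6 of 9 in each cell type (5 of 7 at that level), with Gga3 at 9 regions in Lin- cells and Gnptab and Sort1 at 6 each in CD11b+ cells. Among 15 genes for TFEB and mTORC1 control 7 and 8 were bound (7 of 9 and 5 of 8 at that level), with Fnip2 at 9 regions in Lin- cells and Fnip1 at 5 in CD11b+ cells. Differences between these lists or between cell types within a list were not tested.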

How the data were processed

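Peak lists and expression tables were used as the authors deposited them. In the expression tables the authors' signal is 1 mean normalized count per gene (DESeq2 base mean over both genotypes, reads mapped with STAR 2.5.3a per the submitters' processing notes), and each table was normalized on its own. Further columns hold the authors' comparisons of KO with wild type (fold changes and p-values) and peak summaries; these were not used. In the peak lists the deposited p-value is the one CLIPper gave each peak, at most 0.05, called per library on mm10; the column is unnamed and was read so from its range. Filtered lists leave out peaks shared with smInput. By their headers, eCLIP and input reads were deduplicated and called under different settings, whose part in their difference was not tested. Read depth of the eCLIP libraries was not analysed here.

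Peaks were located on GENCODE M21 basic (GRCm38.p6) by midpoint and joined per gene and strand where they overlapped by at least 1 base. Levels per kb use the union of exons, and percentiles cover genes above 0. Splice site distances use 1 transcript per gene. Intervals are Wilson 95% intervals. Differences between libraries were tested with two-sided exact permutation tests on eCLIP libraries labelled biological replicates and, where used, the inputs of the same numbers. The labels do not give the kind of replicate for the inputs. The p-values measure the spread between those samples. No 2 peak lists were identical. Analyses ran in Python 3.11.15 with pandas 2.3.3, NumPy 2.4.6 and SciPy 1.17.1, and figures in matplotlib 3.10.9; the statistics were tested on simulated data.

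eCLIP and input libraries of the same number carry the same sample name in the labels, so they pair. The correlations of their deviations over the lysosome genes were -0.0099, 0.0096 and -0.0807 in Lin- cells and -0.125 in CD11b+ cells.

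Members and lists were chosen with earlier results of these data known. All 32 genes could be named; of the other lysosome genes, up to 5 per list and cell type with the most regions and up to 3 with the highest level could be. One of these is not reported here. Printed sequences are up to 4 regions per cell type found in the most biological libraries, outside UTRs and chromosome 18.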

Additional observations from a re-analysis of the deposited data

How the results depend on the processing

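Of 97 alternative values for 15 results, 81 kept their direction and their side of the threshold or, for counts and shares, stayed within 1.5 times or the interval. For differences between biological libraries the side of the threshold could not change. Their smallest possible p lay above it, or no p could be given, so for them only the direction was checked. The difference in peaks per 1000 between cell types counts as kept although it was 0.282 without CD11b+ library 1. Assignment by overlap with the gene model moved none of the results it was tried on. The smInput filter removed no peak from the lysosome genes. Their gene counts, region shares and 6-mer shares before the filter were therefore fixed in advance and test nothing. The difference in peaks per 1000 between cell types was 1.33 before the filter, against 1.43 after it. At a deposited p below 0.001, genes bound in at least 2 biological Lin- libraries numbered 7 instead of 16, genes bound in CD11b+ cells 15 instead of 29, and the CA 6-mer share in Lin- cells was 0 instead of 3.08%. Requiring 2 regions left 17 bound genes in CD11b+ cells. Leaving out each biological Lin- library gave 8 to 11 genes in at least 2 libraries and CA 6-mer shares of 0 to 3.51%. The intronic share was 23.1% in Lin- and 68.8% in CD11b+ cells when any exon overlap counted as exonic. With CACA in place of the 6-mers the Lin- share was 16.9%, and with 50 bases added on each side the shares were 9.23% in Lin- and 17.5% in CD11b+ cells. GTGTGT or TGTGTG, chosen after seeing the data, gave 10.8% and 21.3%.

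Technical libraries, which are not independent, were added to the exact permutation tests between CD11b+ and Lin- libraries. The differences were then 5.17 bound genes (p = 0.0381) and 1.67 peaks per 1000 (p = 0.0190), each in an exact permutation test. The share near 3' splice sites differed by -54.8 percentage points (p = 0.00476, exact permutation test). That share was chosen after its values were seen, so its p is no independent test. The cause of these shifts was not tested beyond the larger number of libraries.

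With the replicate number as a replicate block, the differences were 4 genes and 1.79 peaks per 1000 between cell types (exact sign-flip p = 0.5 each), 2.20 for Lin- eCLIP against input (p = 0.25) and 3.35 for CD11b+ eCLIP against input (p = 0.5). Each p is the smallest that the blocked design allows, so neither design could reach a call at 0.05. Across cell types libraries share only a number, and their deviations correlated at -0.156. Leaving out a CD11b+ library gave no value for genes in at least 2 of its biological libraries, since 1 was left, and no p for comparisons with 1 library in an arm. Few biological libraries, and peaks as the only measure of depth used here, limit every comparison.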

Other observations

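Some further lysosome genes differed in level between the tables, and those here were picked after their values were seen. Mcoln2, a second calcium channel gene of the Mcoln1 family, had 381 normalized counts in the Lin- table and 5.47 in the CD11b+ table, which were normalized separately. The mTORC1 regulators Rragb and Rragd had 239 and 77.0 normalized counts in the Lin- table and 6.10 and 4.61 in the CD11b+ table. In the other direction Sort1, a sorting receptor gene, had 2829 normalized counts and no region in the Lin- data, and 11332 normalized counts with 6 regions in the CD11b+ data. Others not picked differed too, such as Fnip2 (4471 normalized counts in the Lin- table and 593 in the CD11b+ table) and Acp5 (50.8 and 255). How many of all genes differ as much was not counted. None of these differences was tested, since each table holds 1 mean per gene.

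Regions seen in technical libraries alone made up 9 of 65 Lin- regions of the lysosome genes (13.8%, against 16.4% over all genes) and 19 of 80 CD11b+ regions (23.8%, against 23.2%). Regions seen in every library numbered 2 of 65 in Lin- cells, in Grn and Atp6v0c (3.08%, and 3.08% over all genes), and 8 of 80 in CD11b+ cells (10%, against 10.2% over all genes).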
